A study of Mus musculus with 15 samples.

Results

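The genes described here are 33 genes of the lysosome. They encode hydrolases of its lumen, proteins that activate those enzymes or carry their lipids, proteins of its membrane, subunits of its proton pump, 2 transcription factors that control such genes, and a receptor that delivers cargo to it. The members were given as a list of gene symbols, and each symbol was matched through its Entrez number to a row of the read count table. All 33 of the 33 listed genes had values, among 17892 genes with values in all. All 33 also passed the filter on low counts, which left 14853 genes for testing.

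The libraries came from isolated PDGFRbeta+ cells of neonatal mouse brain. PDGFRbeta is a growth factor receptor carried by pericytes, the mural cells that wrap brain capillaries. Wild-type (WT) mice gave 3 sham libraries and 4 libraries taken 24 h after hypoxia-ischemia (HI), an injury in which brain tissue loses blood flow and oxygen. Mice with a knockout (KO) of miR-210, a microRNA known to be induced by low oxygen, gave 4 sham libraries and 4 libraries taken 24 h after HI. The labels give no allele, strain, age in days, isolation method or time point for the sham groups. They do not say that the replicates were separate animals, so the p-values measure the spread between libraries, which may be technical. The level of miR-210 was not analysed here, so the genotype labels were not checked against it. Libraries are named by group and replicate number, and values of a group are listed in the order of those numbers, which are 1, 2 and 3 in WT sham, 1, 2, 4 and 5 in WT HI, 1, 3, 4 and 6 in KO sham, and 1 to 4 in KO HI.

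The total expected count per library ran from 15436376 to 18118697. Levels are CPM, counts scaled to a common library size, after TMM normalization. All 10 pericyte markers, Pdgfrb among them, were detected in every library, but markers of other cells were present too and moved with the groups. The summed level of 12 microglia markers was 2509.6 to 3558 CPM in WT sham, 3334 to 5975 CPM in KO sham, 1724 to 4605 CPM in WT HI and 5940.2 to 12874 CPM in KO HI, and none of the 12 was at 0 in any library. The summed level of the 10 pericyte markers was 8043 to 11059 CPM in WT sham, 2911 to 8440 CPM in KO sham, 5792 to 8074 CPM in WT HI and 1671 to 5586 CPM in KO HI. Endothelium markers, 10 in all, summed to 7525 to 8845 CPM in WT sham and 2661 to 7828 CPM in KO sham. After HI these endothelium sums were 6953 to 8990 CPM in WT and 2177 to 4645 CPM in KO. The summed level of 10 neuron markers was 67.3 to 177 CPM in WT sham, 66.1 to 1902 CPM in KO sham, 50.5 to 52.9 CPM in WT HI and 43.0 to 1167 CPM in KO HI, with KO sham 1 and KO HI 3 the highest. KO sham 1 and KO HI 3 were also the highest in 6 astrocyte markers, at 11408 and 4921 CPM. In 7 markers of the oligodendrocyte lineage they were again the highest, at 8257 and 1579 CPM. The plot of summed marker levels shows the microglia, pericyte and neuron sums. Some libraries also stood apart in the lysosomal genes themselves: WT HI 2 was the highest of its group in 27 of the 33 genes, KO HI 1 was the highest in 25, KO sham 6 was the highest in 13, and KO sham 1 was the lowest in 22.

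**Figure D1:**
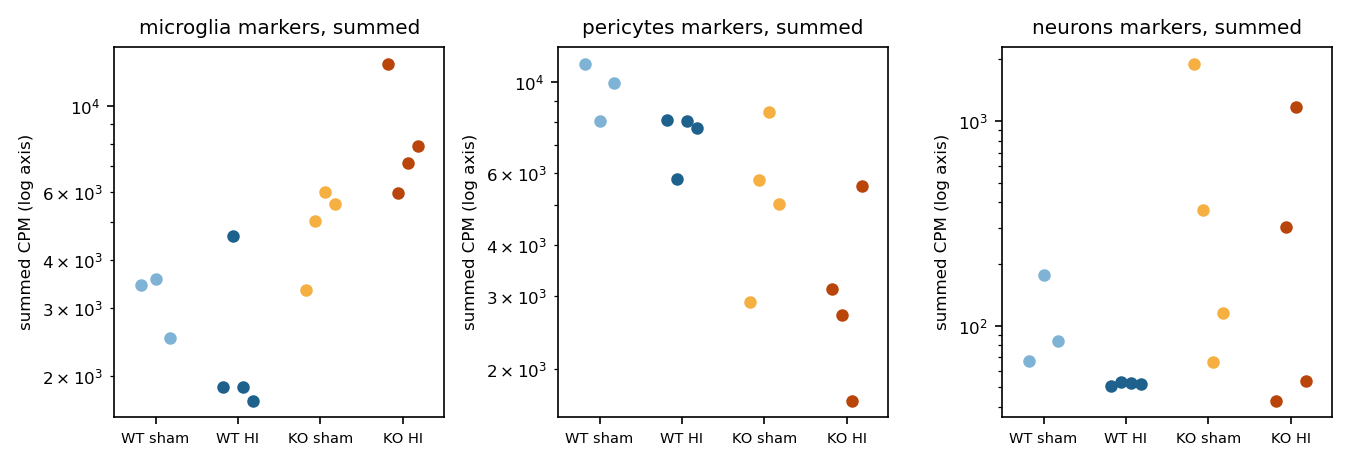
Summed CPM (log axis) of 12 microglia, 10 pericyte and 10 neuron markers in each of the 15 libraries, 1 point per library, grouped by genotype and treatment. All 4 KO HI libraries lie above all 4 WT HI libraries in the microglia sum (5940.2 to 12874 against 1724 to 4605 CPM) and below them in the pericyte sum (1671 to 5586 against 5792 to 8074 CPM).

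Lysosomes are acid compartments in which proteins, glycans and lipids taken up by endocytosis, phagocytosis or autophagy are broken down. A proton pump, the V-ATPase, keeps the lumen acidic, the hydrolases cut the cargo, and membrane proteins protect the organelle and export the products. The factors TFEB and TFE3 are known to bind a short DNA element near many lysosomal genes and to drive them together when lysosomal demand is high. Phagocytes such as microglia and macrophages are rich in lysosomes, and pericytes are known to take up and degrade material around the vessel wall.

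In KO libraries, 14 of the 33 lysosomal genes rose after HI and none fell, tested with edgeR's quasi-likelihood test and with p-values adjusted over all genes tested by the Benjamini-Hochberg method and a threshold of 0.05. Over all genes, 4.88% were called higher and 2.13% lower in that comparison. After HI, 17 of the 33 genes were higher in KO than in WT and none was lower, against 5.96% of all genes called higher and 6.46% called lower. The genes that rose belonged to every role except the transcription factors and the autophagy receptor. In WT, none of the 33 was called after HI in either direction, against 1.38% of all genes called higher and 0.444% called lower. These counts rest on a spread estimated jointly over all groups, and fits of each genotype alone reversed the order of KO and WT. Between KO and WT sham libraries none of the 33 was called, where 0.00673% of all genes were called higher. In bulk RNA of this kind, fewer cells of a type and less RNA per cell cannot be told apart.

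The median log2 fold change of the 33 genes was 0.54 after HI in KO, where that of all genes tested was -0.06, and 0.15 after HI in WT, where that of all genes was -0.01. Between KO and WT the median of the 33 was 0.55 after HI, with 0.06 for all genes, and 0.19 in sham, with 0.05 for all genes. Counted by libraries, 16 of the 33 genes were higher in all KO HI than in all KO sham libraries (6.06% of all genes), and 18 were higher in all KO HI than in all WT HI libraries (9.89% of all genes). In WT, 13 of the 33 were higher in all HI than in all sham libraries, where 15.9% of all genes were. The comparisons share groups: HI against sham in KO and KO against WT after HI both use the KO HI libraries.

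**Figure D2:**
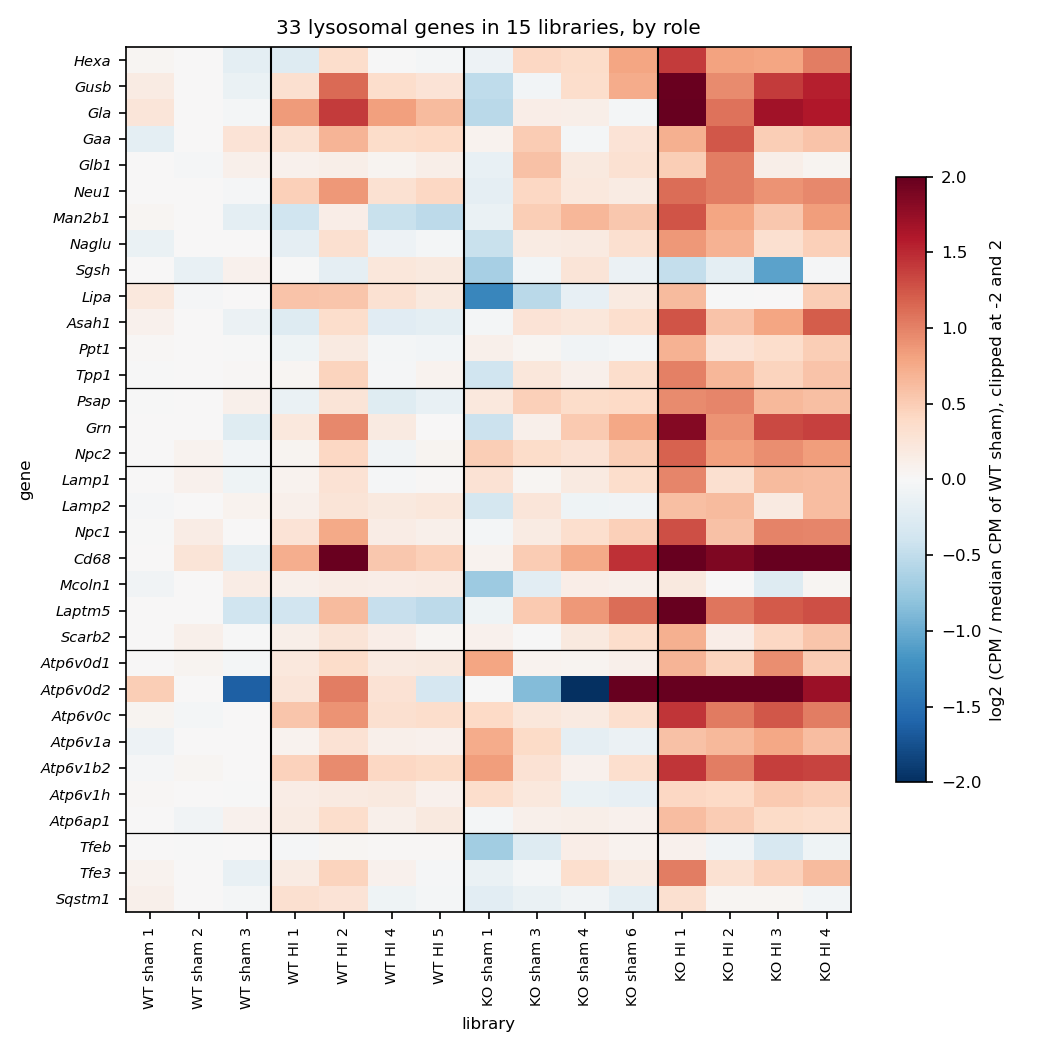
Log2 ratio of each gene's CPM to its median CPM in WT sham, for 33 lysosomal genes (rows, ordered by role, with lines between roles) in 15 libraries (columns), clipped at -2 and 2. The 4 KO HI columns hold most of the high ratios, and WT HI 2 differs from the other WT HI columns in rows such as Cd68, Gusb and Grn.

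The calls in KO leaned on single libraries and on the joint estimate of spread. Of the 14 genes called after HI in KO, 4 were left without KO HI 1 and 9 without KO sham 3, where 1.83% and 2.48% of all genes were called higher. None was called when only the 2 KO groups were fitted, a fit that called 16 genes in all. Of the 17 genes called between KO and WT after HI, 5 were left without WT HI 5, 7 without WT HI 1, 8 without WT HI 4 and 8 without KO HI 1, where 1.60%, 1.66%, 1.77% and 2.30% of all genes were called higher. With only the 2 HI groups fitted, 17 were called (6.18% of all genes). Leaving out the 5 libraries with the highest neuron markers gave 17 and 24 calls, while the share of all genes called higher also went up, to 8.95% and 12.7%. These 5, picked by their marker values, were WT sham 2, KO sham 1 and 3, and KO HI 2 and 3. Of the KO libraries, only sham 4 and 6 and HI 1 and 4 were left, and the part of neural RNA was not tested. Leaving out WT HI 2 and KO HI 1 together, an alternative chosen after the data were seen, gave 11 and 15 calls, with 2.51% and 4.30% of all genes. Microglia markers moved in the same comparisons. Of 12, 4 were called higher after HI in KO (4.88% of all genes) and 2 were called lower after HI in WT (0.444%). All 12 were called higher in KO than in WT after HI (5.96%). Of 6 markers of border macrophages, 4 were called higher in KO than in WT after HI (5.96% of all genes) and none in the other comparisons. Their summed levels were 464 to 1277 CPM in KO HI and 273 to 352 CPM in WT HI. In sham they were 262 to 557 CPM in KO and 250.4 to 456 CPM in WT, and none of the 6 was at 0 in any library. Of 8 markers of monocytes and neutrophils, 3 were called higher after HI in KO (4.88% of all genes). A single marker was called higher in KO than in WT after HI (5.96%). Their summed levels were 86.9 to 173 CPM in KO HI and 35.7 to 109 CPM in WT HI. In sham they were 39.9 to 84.4 CPM in KO and 29.4 to 46.6 CPM in WT, and of the 8 only Retnlg was at 0 in any library. The largest part of these sums was Csf3r, at 63.6 to 130 CPM in KO HI and 17.5 to 61.6 CPM in WT HI. Ly6c2 went the other way without overlap, at 1.73 to 2.78 CPM in KO HI and 3.04 to 6.17 CPM in WT HI. The part of these cells in the lysosomal results was not tested.

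**Figure D3:**
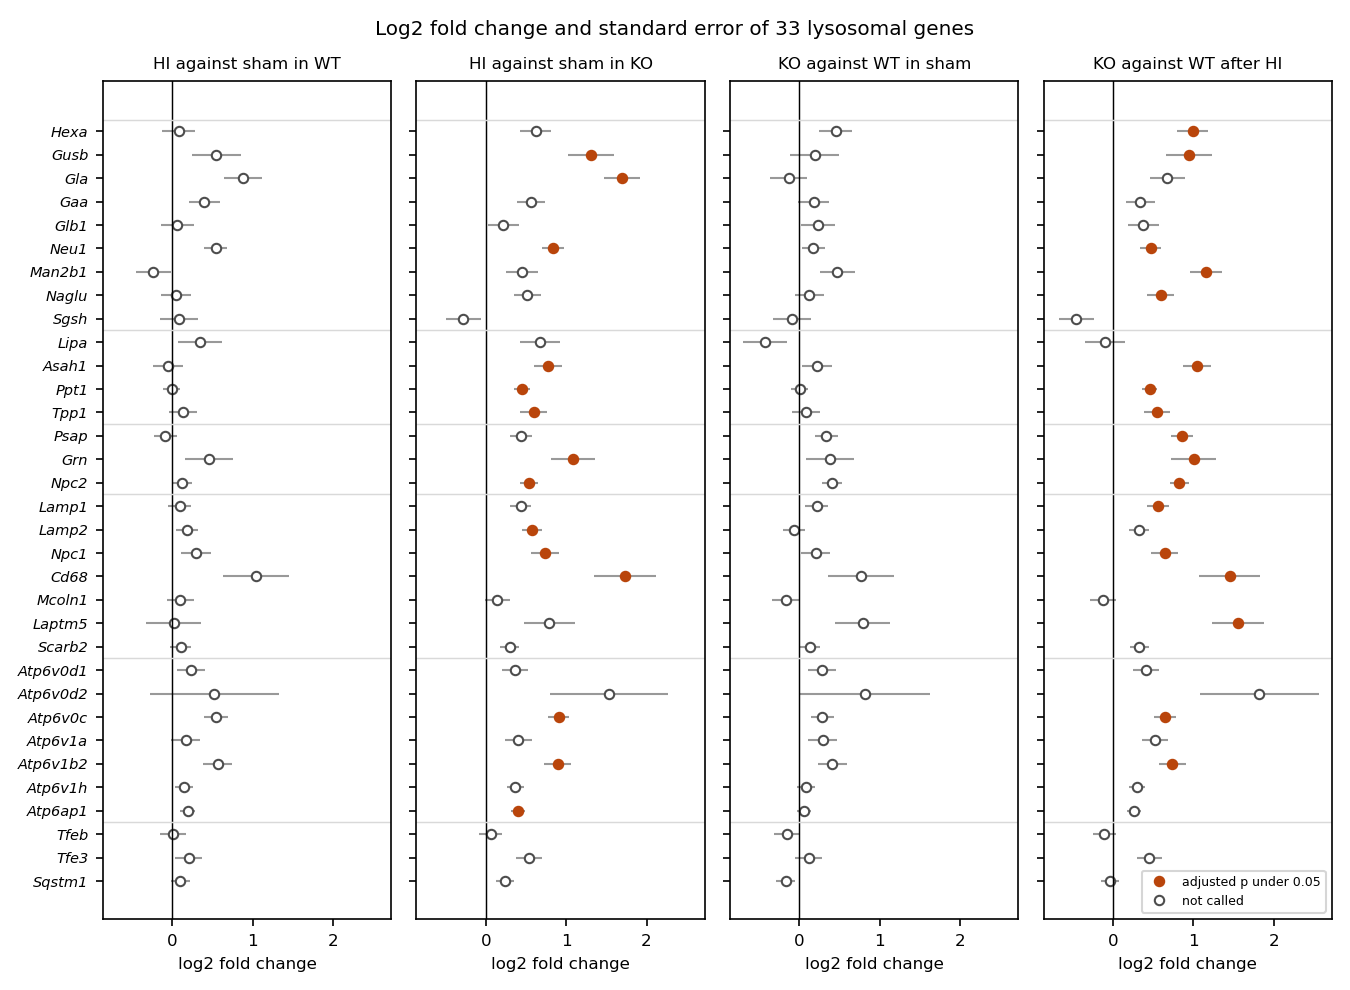
Log2 fold change (points) and its standard error (bars) of 33 lysosomal genes in 4 comparisons, 1 panel each, with called genes filled and genes not called open. Filled points appear only in the panels of HI against sham in KO (14 genes) and of KO against WT after HI (17 genes), all to the right of 0.

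The 9 enzymes that take glycans apart are glycosidases and a sulfamidase. Of these, 3 rose after HI in KO (4.88% of all genes) and 5 were higher in KO than in WT after HI (5.96%). Gla (Entrez 11605), alpha-galactosidase A, which removes terminal galactose from glycolipids, measured 16.6, 14.03 and 13.6 CPM in WT sham, 25.2, 37.2, 24.9 and 21.8 CPM in WT HI, 9.66, 15.4, 15.2 and 13.6 CPM in KO sham and 56.96, 29.6, 45.1 and 42.6 CPM in KO HI. Every KO HI library lay above every KO sham library and every WT HI library above every WT sham library, while WT HI 2 lay above KO HI 2. For Gla the log2 fold change after HI was 1.69 ± 0.22 (SE, edgeR adjusted p = 0.00159) in KO and 0.89 ± 0.24 (adjusted p = 0.0811) in WT.

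Gusb (Entrez 110006), beta-glucuronidase, which degrades glycosaminoglycans, measured 173, 155 and 142 CPM in WT sham, 194, 339, 197 and 188 CPM in WT HI, 108, 148, 197 and 260.2 CPM in KO sham and 609, 298, 407 and 456 CPM in KO HI. KO HI and KO sham did not overlap, but WT HI 2 lay above KO HI 2. For Gusb the log2 fold change was 1.31 ± 0.29 (edgeR adjusted p = 0.0179) after HI in KO and 0.95 ± 0.28 (adjusted p = 0.0452) between KO and WT after HI. Neu1 (Entrez 18010), a sialidase, measured 26.8, 26.9 and 26.4 CPM in WT sham, 37.4, 48.98, 33.1 and 35.7 CPM in WT HI, 23.6, 35.8, 30.9 and 30.1 CPM in KO sham and 58.3, 54.7, 49.9 and 51.98 CPM in KO HI. The lowest KO HI library lay just above WT HI 2 and well above all sham libraries. For Neu1 the log2 fold change was 0.83 ± 0.14 (edgeR adjusted p = 0.00579) after HI in KO, 0.47 ± 0.13 (adjusted p = 0.0389) between KO and WT after HI, and 0.54 ± 0.15 (adjusted p = 0.0848) after HI in WT.

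Hexa, Man2b1 and Naglu were higher in KO than in WT after HI without being called after HI in KO. Man2b1 (Entrez 17159), lysosomal alpha-mannosidase, measured 335, 325 and 284 CPM in WT sham, 248, 357, 238 and 227 CPM in WT HI, 296, 459, 516 and 473 CPM in KO sham and 777, 560.1, 474 and 580.1 CPM in KO HI. The KO HI libraries lay above all WT HI libraries, but KO sham 4 lay above KO HI 3, and 3 of the 4 WT HI libraries lay below the WT sham libraries. For Man2b1 the log2 fold change between KO and WT after HI was 1.16 ± 0.20 (edgeR adjusted p = 0.00623). Hexa (Entrez 15211), an enzyme subunit that acts in ganglioside breakdown, measured 158, 153 and 133 CPM in WT sham, 128, 196, 152 and 149 CPM in WT HI, 142, 203, 199 and 266 CPM in KO sham and 404, 267, 265 and 311 CPM in KO HI. KO HI and WT HI did not overlap, while KO sham 6 lay above KO HI 3. For Hexa the log2 fold change between KO and WT after HI was 0.99 ± 0.19 (edgeR adjusted p = 0.00929). Naglu (Entrez 27419), an enzyme of heparan sulfate breakdown, measured 54.2, 59.2 and 59.7 CPM in WT sham, 52.3, 73.8, 54.97 and 57.5 CPM in WT HI, 43.4, 66.7, 67.3 and 74.2 CPM in KO sham and 108, 96.2, 73.9 and 82.4 CPM in KO HI. Its lowest KO HI library and WT HI 2 nearly touched. For Naglu the log2 fold change between KO and WT after HI was 0.59 ± 0.17 (edgeR adjusted p = 0.0367).

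The other 3 enzymes of this role were not called in any comparison. Sgsh, the sulfamidase that acts on heparan sulfate, measured 28.7, 25.9 and 30.6 CPM in WT sham, 28.5, 25.4, 33.7 and 32.7 CPM in WT HI, 18.1, 27.8, 34.2 and 26.4 CPM in KO sham and 20.7, 24.98, 13.7 and 28.4 CPM in KO HI. It was the member with the lowest fold change between KO and WT after HI, at -0.45 ± 0.22 (edgeR adjusted p = 0.172), with overlapping groups. Gaa, the acid alpha-glucosidase that degrades glycogen, ran from 155 to 201 CPM in WT HI and 177 to 298 CPM in KO HI, where KO HI 2 was the highest. Glb1, beta-galactosidase, ran from 75.8 to 79.1 CPM in WT HI and 75.8 to 148 CPM in KO HI, and there too KO HI 2 was the highest. KO HI 2 was the library with the highest summed level of 5 choroid plexus markers, 52634 CPM, and the part of those cells in the 2 values was not tested.

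**Figure D4:**
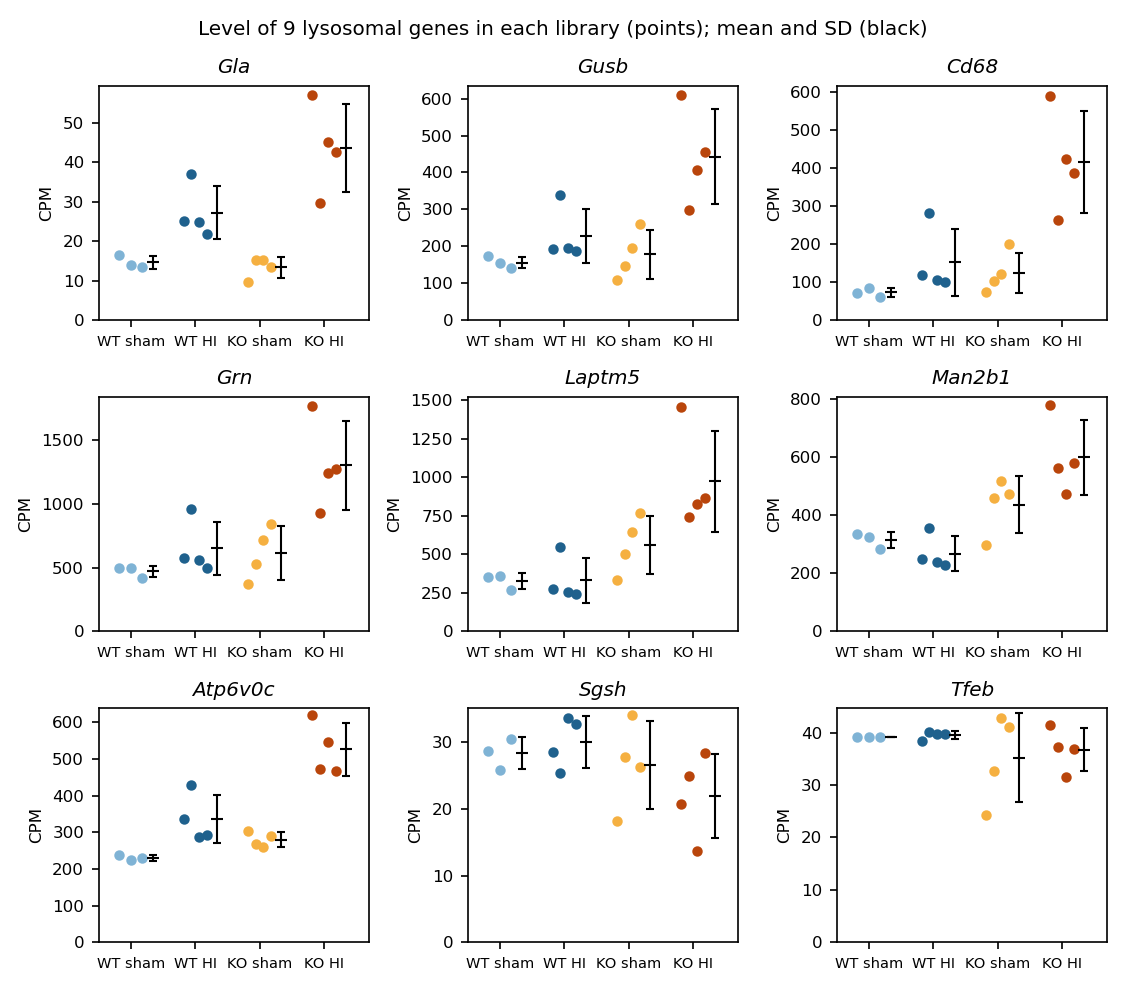
CPM of 9 lysosomal genes in each library (colored points) with the group mean and SD beside them (black; n = 3 in WT sham and 4 in the other groups), on axes that start at 0. WT HI 2 is the highest WT HI point for Gla, Gusb, Cd68, Grn, Laptm5, Man2b1 and Atp6v0c, and Tfeb lies between 24.3 and 42.8 CPM in all 15 libraries.

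Of the 4 hydrolases of lipids, acyl groups and peptides, 3 rose after HI in KO (4.88% of all genes). Between KO and WT after HI, 3 were higher in KO (5.96%). Asah1 (Entrez 11886), acid ceramidase, measured 134, 126 and 115 CPM in WT sham, 105, 160.3, 108 and 109.8 CPM in WT HI, 122, 152, 147 and 159 CPM in KO sham and 302, 186, 217 and 290.3 CPM in KO HI. All KO HI libraries lay above every library of the other groups. For Asah1 the log2 fold change was 0.78 ± 0.17 (edgeR adjusted p = 0.02) after HI in KO and 1.04 ± 0.17 (adjusted p = 0.00583) between KO and WT after HI. Ppt1 (Entrez 19063), which removes palmitate from proteins, measured 121, 119 and 118 CPM in WT sham, 111, 135, 116 and 114 CPM in WT HI, 128, 123, 114 and 115 CPM in KO sham and 192, 143, 152 and 167 CPM in KO HI. The 11 libraries outside KO HI lay close together and the 4 KO HI libraries above them. For Ppt1 the log2 fold change was 0.45 ± 0.10 (edgeR adjusted p = 0.017) after HI in KO and 0.46 ± 0.10 (adjusted p = 0.0126) between KO and WT after HI, and it was -0.00 ± 0.10 after HI in WT.

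Tpp1 (Entrez 12751), a tripeptidyl peptidase, measured 217, 217 and 222 CPM in WT sham, 223, 295, 212 and 227 CPM in WT HI, 165, 253, 232 and 277 CPM in KO sham and 437, 345, 296 and 321 CPM in KO HI. KO HI 3 and WT HI 2 nearly touched. For Tpp1 the log2 fold change was 0.60 ± 0.16 (edgeR adjusted p = 0.047) after HI in KO and 0.55 ± 0.16 (adjusted p = 0.0466) between KO and WT after HI. These were the 2 calls with the highest adjusted p among the 33 genes. Lipa, the acid lipase that frees cholesterol from its esters, measured 152, 128 and 131 CPM in WT sham, 195, 192, 162 and 149 CPM in WT HI, 53.1, 89.7, 117 and 148 CPM in KO sham and 204, 131, 132 and 184 CPM in KO HI. KO sham 1, the library with the highest neuron markers, was the lowest of all. The HI groups overlapped, with a log2 fold change between KO and WT of -0.10 ± 0.25 (edgeR adjusted p = 0.8).

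All 3 proteins that work beside the hydrolases in the lumen were higher in KO than in WT after HI (5.96% of all genes). After HI in KO, 2 of the 3 rose (4.88%). Npc2 (Entrez 67963), which carries cholesterol within the lumen, measured 206, 216 and 199 CPM in WT sham, 214, 276, 196 and 213 CPM in WT HI, 291, 267, 251 and 289 CPM in KO sham and 467, 365, 393 and 369 CPM in KO HI. KO HI lay above all other libraries, and all KO sham libraries lay above all WT sham libraries. For Npc2 the log2 fold change was 0.83 ± 0.12 (edgeR adjusted p = 0.00484) between KO and WT after HI, the smallest adjusted p of the 33 genes in that comparison. It was 0.54 ± 0.12 (adjusted p = 0.0167) after HI in KO, and between KO and WT in sham it was 0.41 ± 0.13 (adjusted p = 0.477), which was not called.

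Psap (Entrez 19156), the precursor of the saposins that present glycolipids to their enzymes, measured 1619.9, 1626 and 1740.2 CPM in WT sham, 1488, 1942, 1379 and 1464 CPM in WT HI, 1890.2, 2271, 2101 and 2138 CPM in KO sham and 3136, 3186, 2554 and 2467 CPM in KO HI. KO HI again lay above all other libraries and KO sham above WT sham. For Psap the log2 fold change was 0.85 ± 0.14 (edgeR adjusted p = 0.00547) between KO and WT after HI and 0.43 ± 0.14 (adjusted p = 0.0746) after HI in KO, the latter not called. Grn (Entrez 14824), progranulin, which is cut into granulins in the lysosome, measured 499, 496 and 421 CPM in WT sham, 575, 962, 563 and 500.0 CPM in WT HI, 368, 530.3, 715 and 845 CPM in KO sham and 1767, 927, 1239 and 1275 CPM in KO HI. WT HI 2 lay above KO HI 2, and no other WT HI library overlapped with KO HI. For Grn the log2 fold change was 1.08 ± 0.28 (edgeR adjusted p = 0.0346) after HI in KO and 1.002 ± 0.28 (adjusted p = 0.0331) between KO and WT after HI.

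Of the 7 membrane proteins, 3 rose after HI in KO (4.88% of all genes). Between KO and WT after HI, 4 were higher in KO (5.96%). Cd68 (Entrez 12514), a heavily glycosylated membrane protein typical of phagocyte lysosomes, measured 72.2, 85.97 and 62.8 CPM in WT sham, 119.8, 283, 105 and 101 CPM in WT HI, 75.7, 103, 122 and 199.9 CPM in KO sham and 589.9, 263, 424 and 387 CPM in KO HI. It had the largest called change of the 33 genes after HI in KO, and WT HI 2 lay above KO HI 2. For Cd68 the log2 fold change was 1.73 ± 0.38 (edgeR adjusted p = 0.0183) after HI in KO, 1.45 ± 0.38 (adjusted p = 0.0266) between KO and WT after HI, and 1.05 ± 0.41 (adjusted p = 0.277) after HI in WT. Laptm5 (Entrez 16792), a lysosomal transmembrane protein of immune cells, measured 353, 356 and 269 CPM in WT sham, 272, 550.2, 255 and 245 CPM in WT HI, 333, 505, 644 and 768 CPM in KO sham and 1456, 741, 828 and 865 CPM in KO HI. KO HI lay above all WT HI libraries, while KO sham 6 lay above KO HI 2 and 3 of 4 WT HI libraries lay near or below the lowest WT sham library. For Laptm5 the log2 fold change was 1.56 ± 0.32 (edgeR adjusted p = 0.0117) between KO and WT after HI and 0.79 ± 0.32 (adjusted p = 0.16) after HI in KO. WT HI 2 and KO HI 1, the highest of their groups for both genes, were also the highest of their groups in summed microglia markers, at 4605 and 12874 CPM.

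Lamp1 and Lamp2 are the main structural proteins of the lysosomal membrane. Lamp1 (Entrez 16783), an abundant glycoprotein that lines the membrane, measured 666, 709 and 629.7 CPM in WT sham, 699, 813, 658 and 679 CPM in WT HI, 815, 687, 751 and 854 CPM in KO sham and 1312, 833, 1029.5 and 1023 CPM in KO HI. KO HI 2 lay just above WT HI 2 and below KO sham 6. For Lamp1 the log2 fold change was 0.56 ± 0.13 (edgeR adjusted p = 0.0194) between KO and WT after HI and 0.43 ± 0.13 (adjusted p = 0.0688) after HI in KO, the latter not called. Lamp2 (Entrez 16784), its close relative with a part in autophagy, measured 284, 289.6 and 305 CPM in WT sham, 312, 347, 333 and 338 CPM in WT HI, 226, 341, 274 and 275 CPM in KO sham and 440.3, 448, 329 and 444 CPM in KO HI. KO HI 3 lay below KO sham 3, so the KO groups overlapped although the gene was called. For Lamp2 the log2 fold change was 0.57 ± 0.13 (edgeR adjusted p = 0.0191) after HI in KO and 0.32 ± 0.13 (adjusted p = 0.108) between KO and WT after HI.

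Npc1 (Entrez 18145), the membrane transporter that takes cholesterol from Npc2, measured 77.7, 86.6 and 78.4 CPM in WT sham, 94.7, 132, 86.9 and 84.2 CPM in WT HI, 76.2, 88.2, 99.3 and 109 CPM in KO sham and 192, 118, 156 and 155 CPM in KO HI. KO HI lay above KO sham, and WT HI 2 lay above KO HI 2. For Npc1 the log2 fold change was 0.74 ± 0.17 (edgeR adjusted p = 0.0234) after HI in KO and 0.64 ± 0.17 (adjusted p = 0.0292) between KO and WT after HI. Scarb2, a glycoprotein of the lysosomal membrane, had 0.33 ± 0.12 as its log2 fold change (edgeR adjusted p = 0.0838) between KO and WT after HI. The calcium channel Mcoln1 had -0.12 ± 0.16 (adjusted p = 0.596) in the same comparison, and its KO HI libraries, at 39.7 to 53.9 CPM, enclosed the WT HI libraries at 50.5 to 52.5 CPM. Neither gene was called in any comparison.

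Of the 7 members that belong to the proton pump, 3 rose after HI in KO (4.88% of all genes). Between KO and WT after HI, 2 were higher in KO (5.96%). All 7 had every KO HI library above every WT HI library, as did 9.89% of all genes, although 5 of the 7 did not pass the test. Atp6v0c (Entrez 11984), which forms the rotating ring in the membrane, measured 238, 224 and 229.7 CPM in WT sham, 338, 429, 287 and 292 CPM in WT HI, 303, 269, 261 and 290.1 CPM in KO sham and 619.7, 474, 546 and 467 CPM in KO HI. KO HI lay above all other libraries, WT HI above WT sham, and KO sham above WT sham. For Atp6v0c the log2 fold change was 0.91 ± 0.13 (edgeR adjusted p = 0.00363) after HI in KO, 0.65 ± 0.13 (adjusted p = 0.0112) between KO and WT after HI, and 0.55 ± 0.14 (adjusted p = 0.077) after HI in WT.

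Atp6v1b2 (Entrez 11966), a subunit of the part that splits ATP, measured 121, 126 and 123 CPM in WT sham, 169, 236, 163 and 161 CPM in WT HI, 219.8, 149, 129.7 and 155 CPM in KO sham and 332, 249.8, 321 and 313 CPM in KO HI. WT HI lay above WT sham and KO HI above all other libraries. For Atp6v1b2 the log2 fold change was 0.89 ± 0.17 (edgeR adjusted p = 0.01) after HI in KO and 0.74 ± 0.17 (adjusted p = 0.0161) between KO and WT after HI. Atp6ap1 (Entrez 54411), an accessory protein needed for assembly of the pump, measured 214, 203 and 228 CPM in WT sham, 238, 272, 229 and 246 CPM in WT HI, 209, 229, 232 and 226 CPM in KO sham and 328, 303, 278 and 273 CPM in KO HI. KO HI 4 lay just above WT HI 2. For Atp6ap1 the log2 fold change was 0.40 ± 0.08 (edgeR adjusted p = 0.0157) after HI in KO and 0.26 ± 0.08 (adjusted p = 0.0572) between KO and WT after HI.

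The pump is also abundant in neurons, where it loads synaptic vesicles. In KO sham 1, with 1902 CPM of summed neuron markers, Atp6v0d1 reached 1.66 times, Atp6v1a 1.82 times, Atp6v1b2 1.47 times and Atp6v1h 1.396 times the median of the other KO sham libraries, while Atp6v0c stood at 1.13 times, Atp6ap1 at 0.914 times and Atp6v0d2 at 1.81 times. In KO HI 3, with 1167 CPM of neuron markers, Atp6v0d1 stood at 1.34 times the median of the other KO HI libraries and the other 6 pump members at 0.9195 to 1.15 times. Both libraries were also the highest of their groups in summed astrocyte markers, at 11408 and 4921 CPM, and oligodendrocyte lineage markers, at 8257 and 1579 CPM. The part of neuronal or glial RNA in these values was not tested. Atp6v0d1, Atp6v1a and Atp6v1h, subunits of the stalk, the ATP-splitting head and its regulation, had log2 fold changes between KO and WT after HI of 0.41 ± 0.16, 0.52 ± 0.17 and 0.30 ± 0.10, none called. Atp6v0d2, a form of the d subunit known from osteoclasts and macrophages, measured 2.92, 2.07 and 0.664 CPM in WT sham, 2.46, 4.22, 2.54 and 1.64 CPM in WT HI, 2.05, 1.13, 0.463 and 9.60 CPM in KO sham and 14.1, 8.75, 8.77 and 6.76 CPM in KO HI. KO sham 6 stood at 8.46 times the median of the other KO sham libraries, and every KO HI library lay above every WT HI library. For Atp6v0d2 the log2 fold change between KO and WT after HI was the largest of the 33 but with a wide error, 1.82 ± 0.74 (edgeR adjusted p = 0.119), and it was not called.

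The calls differed in how far they rested on single libraries, which were left out 1 at a time. After HI in KO, Gla, Neu1, Atp6v0c and Atp6v1b2 were called in all 15 such fits. Asah1, Atp6ap1, Npc2 and Ppt1 were lost without KO HI 1 alone, with edgeR adjusted p of 0.0733, 0.0564, 0.0590 and 0.0537. Gusb, Npc1 and Cd68 were lost without KO HI 1 (edgeR adjusted p = 0.0649, 0.0849 and 0.0651) or KO sham 3 (0.0556, 0.0640 and 0.0565), and Lamp2 without KO HI 1 (0.0638) or KO HI 4 (0.0537). Grn was lost in 8 of the 15 fits and Tpp1 in 11, with the highest edgeR adjusted p, 0.120 and 0.161, without KO HI 1. Between KO and WT after HI, Hexa, Man2b1, Asah1, Psap and Npc2 were called in all 15 fits. Laptm5 and Atp6v0c were lost without WT HI 5 alone (edgeR adjusted p = 0.0503 and 0.0544), and Ppt1 without WT HI 5 (0.0628) or WT HI 1 (0.0527). Lamp1 and Atp6v1b2 were lost without WT HI 1, WT HI 4, WT HI 5 or KO HI 1, and Grn, Cd68 and Npc1 without these or KO HI 3, with the highest edgeR adjusted p of these 5 genes, 0.0804, 0.0647, 0.115, 0.0941 and 0.114, without WT HI 5. Naglu was lost in 8 fits, Neu1 in 9, Gusb in 10 and Tpp1 in 11, with edgeR adjusted p up to 0.116, 0.136, 0.142 and 0.145.

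The 2 transcription factors and the autophagy receptor were not called in any comparison. Tfeb measured 39.2, 39.1 and 39.2 CPM in WT sham, 38.5, 40.1, 39.6 and 39.7 CPM in WT HI, 24.3, 32.7, 42.8 and 40.96 CPM in KO sham and 41.4, 37.2, 31.5 and 36.8 CPM in KO HI. The WT groups were nearly level, and KO sham 1 and KO HI 3, both with high neuron markers, were the lowest of their groups. For Tfeb the log2 fold change was 0.06 ± 0.15 (edgeR adjusted p = 0.862) after HI in KO and -0.10 ± 0.15 (adjusted p = 0.633) between KO and WT after HI. Tfe3, its relative, measured 69.7, 66.5 and 59.8 CPM in WT sham, 74.7, 90.03, 70.6 and 65.7 CPM in WT HI, 60.4, 64.3, 83.9 and 74.7 CPM in KO sham and 135, 82.4, 91.9 and 103 CPM in KO HI. KO HI 1 stood highest, the groups overlapped, and the log2 fold change after HI in KO was 0.54 ± 0.16 (edgeR adjusted p = 0.0559). Sqstm1, the p62 receptor that brings ubiquitin-marked cargo to autophagosomes, ran from 259 to 343 CPM in WT HI and 265 to 344 CPM in KO HI, with a log2 fold change between KO and WT after HI of -0.03 ± 0.11 (edgeR adjusted p = 0.855).

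TFEB and TFE3 act on DNA, as proteins that move into the nucleus, through the CLEAR element, an E-box with set flanks. The promoter windows of RefSeq (build GRCm38.p6, from 250 bases before to 50 bases after each start) were searched on both strands for 4 nested motifs: CACGTG alone, then the longer TCACGTG that contains it, then TCACGTGA that contains both of these, and the full CLEAR palindrome, TCACGTGA with a G before it and a C after it. A window was present for 28 of the 33 genes. TCACGTG was found for 9 of the 28 (32.1%), where 6.50% of the genes tested with a window and 4.29% of all genes with a window held it. Those same 9 held CACGTG, found in 11.1% of tested genes and 8.09% of all genes. TCACGTGA was found for 4 of the 28 (14.3%), against 1.98% of tested genes and 1.12% of all genes, and the full palindrome for none, against 0.678% and 0.370%. The other 19 genes held none of the 4 motifs in any of their windows. The 9 matches are shown because these counts rest on them, each 5′ to 3′ on the gene's strand, with the match in capitals and its coordinates in GRCm38.p6.
Gla, chrX:134601217-134601242, minus strand: agcgattgaTCACGTGAgcatctacg
Mcoln1, chr8:3500464-3500489, plus strand: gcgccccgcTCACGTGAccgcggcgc
Atp6v0d1, chr8:105566052-105566077, minus strand: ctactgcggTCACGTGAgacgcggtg
Atp6v1a, chr16:44139375-44139400, minus strand: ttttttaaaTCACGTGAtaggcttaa
Gaa, chr11:119267813-119267837, plus strand: tctgtgcgaTCACGTGtttgactct
Glb1, chr9:114401020-114401044, plus strand: gcttctgagTCACGTGgcctacaga
Naglu, chr11:101070011-101070035, plus strand: accttcaggTCACGTGgcccgaggt
Lamp1, chr8:13159090-13159114, plus strand: ggcaagataTCACGTGgtccagcgc
Sgsh, chr11:119355524-119355548, minus strand: cctgccgtgCACGTGAccgtgggga

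In the first 4 the motif reads TCACGTGA, which is its own reverse complement, and in Sgsh the 7 letters lie on the opposite strand. With the first base of the transcript as 1, the matches begin at -228 for Gla, -46 for Mcoln1, -4 for Atp6v0d1, -132 for Atp6v1a, -141 for Gaa, -49 for Glb1, -74 for Naglu, -62 for Lamp1 and -29 for Sgsh. The windows of Lamp1 held 4 matches and those of Gla 2, of which the first is shown. After HI in KO, 1 of the 9 genes with a match and 10 of the 19 without one were called higher (4.88% of all genes). Their median log2 fold changes were 0.40 and 0.57. Between KO and WT after HI the counts were 2 of 9 and 12 of 19 (5.96% of all genes), with medians of 0.41 and 0.55. A match is a run of letters and no measure of binding, and these counts are a description.

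The genes differed widely in level. Per kilobase of exon in WT sham, Psap was the highest at 606 ± 24.6 CPM per kb (SD, n = 3), followed by Lamp1 at 299.8 ± 17.8, Grn at 202 ± 18.9, Atp6v0c at 183 ± 5.55 and Laptm5 at 125 ± 19.1. Grn and Atp6v0c overlapped in their libraries, and the other neighbors among these 5 did not. The lowest were Sgsh at 6.52 ± 0.543, Gla at 4.65 ± 0.519 and Atp6v0d2 at 0.742 ± 0.448 CPM per kb, again without overlap. In KO HI, Psap stood at 1033 ± 138 (SD, n = 4), Grn at 556 ± 148, Lamp1 at 471 ± 88.5, Atp6v0c at 419 ± 56.9, Laptm5 at 374 ± 126 and Cd68 at 331 ± 107 CPM per kb. Cd68 had been at 58.6 ± 9.26 CPM per kb in WT sham, the thirteenth of the 33 levels there. So Gla, with the strongest call after HI in KO, was among the least abundant of these transcripts in length-corrected level, and its fold change in that comparison rests on 9.66 to 15.4 CPM in KO sham and 29.6 to 56.96 CPM in KO HI.

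In WT, the response of the 33 genes to HI was small against the spread estimated jointly over all groups. With 0 called by edgeR, 5 of the 33 had an unadjusted p under 0.05 (12.8% of all genes did): Gla, Neu1, Cd68, Atp6v0c and Atp6v1b2. DESeq2 called 3 of them higher, Gla, Neu1 and Atp6v0c, where it called 3.66% of all genes higher, and limma-voom called none. A fit of the 2 WT groups alone called 5 members higher, Gla, Neu1, Atp6v0d1, Atp6v0c and Atp6v1b2, where it called 9.11% of all genes higher. The fit of the 2 KO groups alone called 16 genes higher in all and no member. With each genotype fitted alone, members were called in WT and not in KO, the reverse of the joint fit. Without KO sham 1, edgeR called 4 members in WT (2.65% of all genes), and without KO HI 2 it called 1 (1.83%), although neither library belongs to the WT groups. Of the 7 pump genes, 6 had every WT HI library above every WT sham library, as did 15.9% of all genes.

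Between KO and WT sham libraries, edgeR, DESeq2 and limma-voom called none of the 33 genes, and 6 had an unadjusted p under 0.05 (8.56% of all genes did): Hexa, Man2b1, Psap, Npc2, Laptm5 and Atp6v1b2. Every KO sham library lay above every WT sham library for Psap, Npc2, Atp6v0c and Atp6v1b2 (4.63% of all genes did so), and below them for Sqstm1 (5.49% of all genes). The KO sham libraries spread widely. Cd68, for example, had 125 ± 53.3 CPM (SD, n = 4) in KO sham and 73.7 ± 11.6 CPM (SD, n = 3) in WT sham.

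Whether the response to HI differed between KO and WT was tested directly as the difference of the 2 log2 fold changes. It was above 0 for 32 of the 33 genes, with a median of 0.36 where that of all genes was -0.02, and Sgsh was the exception at -0.36 ± 0.32. edgeR called 0 of the 33, as it called 0% of all genes tested in that contrast. DESeq2 and limma-voom also called 0 of the 33. An unadjusted p under 0.05 was found for 6 of the 33 (5.17% of all genes): Asah1 at 0.83 ± 0.25 (edgeR adjusted p = 0.834), Ppt1 at 0.45 ± 0.14, Psap at 0.52 ± 0.20, Gla at 0.81 ± 0.32, Npc2 at 0.42 ± 0.17 and Man2b1 at 0.69 ± 0.29. The standard errors of these differences ran from 0.12 to 1.07 over the 33 genes.

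Other genes of the lysosomal pathway, taken from lists written for this work, were counted in the same fit. Of 23 further hydrolases and activators, 8 rose after HI in KO (4.88% of all genes). Between KO and WT after HI, 10 were higher in KO (5.96%). None was called after HI in WT (1.38% higher and 0.444% lower over all genes). Galns, a sulfatase of keratan sulfate, ran from 12.5 to 26.8 CPM in KO sham and 41.4 to 64.9 CPM in KO HI, with a log2 fold change after HI of 1.33 ± 0.23 (edgeR adjusted p = 0.00664). Scpep1, a serine carboxypeptidase, ran from 44.3 to 77.8 and 99.00 to 141 CPM in the same groups (0.87 ± 0.17, edgeR adjusted p = 0.0123).

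Of 14 further pump subunits tested, 6 rose after HI in KO (4.88% of all genes). Between KO and WT after HI, 7 were higher in KO (5.96%). Atp6v0b, a ring subunit, ran from 78.6 to 107 CPM in WT HI and 124 to 159.5 CPM in KO HI, a difference of 0.69 ± 0.11 on the log2 scale (edgeR adjusted p = 0.00547). Atp6v0a1, a form of the large membrane subunit, ran from 131 to 149.6 CPM in KO sham and 201 to 264 CPM in KO HI (0.72 ± 0.11, edgeR adjusted p = 0.00578). Atp6ap2, the accessory protein also known as the prorenin receptor, was 95.95 to 144 CPM in WT HI and 181 to 211 CPM in KO HI (0.86 ± 0.15, edgeR adjusted p = 0.00696). For all 3 of these the KO HI libraries lay above the KO sham and the WT HI libraries.

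Of 18 further membrane transporters and channels, 3 rose after HI in KO (4.88% of all genes) and 1 rose after HI in WT (1.38%). Between KO and WT after HI, 3 were higher in KO (5.96%) and 1 was lower (6.46%). The count of 1 lower is near the share of all genes. Cd63, a tetraspanin of late endosomes and lysosomes, was the gene called in WT: it ran from 169.8 to 189 CPM in WT sham and 276 to 344 CPM in WT HI (0.77 ± 0.12, edgeR adjusted p = 0.00607). In KO it ran from 162 to 226 CPM in sham and 387 to 442 CPM after HI (1.08 ± 0.11, edgeR adjusted p = 0.000314). Slc29a3, a nucleoside transporter, was higher in KO than in WT after HI (1.35 ± 0.24, edgeR adjusted p = 0.00713), and Ostm1, the partner of a chloride transporter, rose after HI in KO (0.44 ± 0.10, edgeR adjusted p = 0.0273).

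Of 9 genes that mark or sort hydrolases on their way to the lysosome, 3 rose after HI in KO (4.88% of all genes). A single gene fell after HI in WT (0.444%), and a single gene was higher in KO than in WT after HI (5.96%). Gnptab, which starts the mannose 6-phosphate tag, rose after HI in KO (0.65 ± 0.14, edgeR adjusted p = 0.0155), as did Cln8, a transfer receptor for hydrolases in the endoplasmic reticulum (0.84 ± 0.20, edgeR adjusted p = 0.0271). Sort1, the sorting receptor sortilin, fell after HI in WT, from 218 to 239 CPM to 154 to 165 CPM (-0.51 ± 0.11, edgeR adjusted p = 0.0399). Its KO libraries ran from 186 to 252 CPM in sham and 154 to 202 CPM after HI and were not called.

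Of 16 genes of the TFEB family and its control by nutrient signals, 3 rose after HI in KO (4.88% of all genes). Between KO and WT after HI, 2 were higher in KO (5.96%). Tfec, the family member known from macrophages, ran from 2.49 to 3.45 CPM in KO sham, 2.38 to 5.70 CPM in WT HI and 6.45 to 14.7 CPM in KO HI. For Tfec the log2 fold change was 1.86 ± 0.35 (edgeR adjusted p = 0.0101) after HI in KO and 1.71 ± 0.35 (adjusted p = 0.0107) between KO and WT after HI. Rragc, a GTPase that holds mTORC1 at the lysosome, and Fnip2, a partner of folliculin, rose after HI in KO (0.63 ± 0.14, edgeR adjusted p = 0.0169, and 0.74 ± 0.21, adjusted p = 0.0481), with overlapping groups. Of 19 autophagy genes, 0 were called after HI in KO (4.88% higher and 2.13% lower over all genes) or in WT (1.38% and 0.444%). Between KO and WT after HI, 1 of the 19 was lower in KO, which is near the 6.46% of all genes called lower. That gene, Wipi1, a protein of the early autophagosome, ran from 25.8 to 33.5 CPM in KO HI. In WT HI it ran from 36.6 to 50.98 CPM (-0.50 ± 0.12, edgeR adjusted p = 0.0231). The ubiquitin-like protein Gabarap and the activating enzyme Atg7 had log2 fold changes after HI in KO of 0.41 ± 0.12 (edgeR adjusted p = 0.0589) and 0.36 ± 0.11 (adjusted p = 0.0628).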

How the data were processed

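The authors deposited expected counts, reads per gene as estimated by their counting step, in 1 table of 15 libraries. Its header states no unit, and the unit was inferred because a few percent of the values in each library were not whole and because RSEM appears in the tool list. That list, per the submitters' processing notes, holds HISAT2 2.1.0, Bowtie2 2.4.4, Bowtie, RSEM 1.3.1 and DESeq2 1.4.5, and it names the build mm39. Their roles, the annotation and any filters are not given in the sources used here. Of 65535 lines in the table, 47643 were blank in all columns, and lack of a value does not show lack of expression. Counting is not stated to use strand, so reads of overlapping genes may be shared.

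Counts were rounded, normalized by TMM and filtered with filterByExpr, and 1 fit of 4 group means over 15 libraries was made with edgeR 4.0.16 in R 4.3.3 (glmQLFit, glmQLFTest), with Benjamini-Hochberg adjustment over 14853 genes. The biological coefficient of variation was 38.6%. Alternatives were DESeq2 1.42.0, limma-voom (limma 3.58.1), other scaling, no filter, fits of 2 groups, a replicate block and left-out libraries. The procedure was tested on simulated counts, with the same spread for all genes and groups and with large planted changes. That test does not bear on groups of unequal spread or on small changes. Levels per kilobase used exon lengths of GENCODE M21, and promoters came from RefSeq GRCm38.p6, neither of the files' build, and no gene coordinates were taken from them beyond the windows shown. Members called in any comparison were given by library, and from each other list up to 3 genes with the smallest p, except for a gene that is not reported here. The members and all lists were chosen with earlier results of these data known.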

Additional observations from a re-analysis of the deposited data

Results flagged for a closer look

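The 33 genes in the 3 groups of 4 libraries make 99 sets, and in 11 of them the highest or lowest library lay farther from the other 3 than Dixon's test allows at 95%. Chance alone would give about 1 in 20. Of the 11, 9 are the same library, WT HI 2, on the high side. Gusb was 339 CPM there and 188 to 197 CPM in the other WT HI libraries, Man2b1 was 357 CPM against 227 to 248 CPM, and Asah1 was 160.3 CPM against 105 to 110 CPM. Grn was 962 CPM against 500 to 575 CPM, Cd68 was 283 CPM against 101 to 120 CPM, and Laptm5 was 550.2 CPM against 245 to 272 CPM. The pump genes Atp6v0d1, Atp6v1a and Atp6v1b2 were 131, 164 and 236 CPM in WT HI 2, with 115 to 117, 141 to 144 and 161 to 169 CPM in the others. The summed microglia markers of WT HI 2 were 4605 CPM against 1724 to 1867 CPM in the others, and their part in these values was not tested.

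KO sham 1 stood high for Atp6v0d1, at 176 CPM against 105 to 109 CPM. It also had the highest summed neuron, astrocyte and oligodendrocyte lineage markers of all libraries, at 1902, 11408 and 8257 CPM. KO HI 3 stood low for Lamp2, at 329 CPM against 440 to 448 CPM.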

How the results depend on the processing

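No member called in the fit reported changed direction under any alternative, over 322 values for HI against sham in KO and 391 for KO against WT after HI. Among members not called, 22 values changed sign for the HI response of WT and 7 for that of KO, 21 for the genotypes in sham, 3 for the genotypes after HI and 13 for the difference of responses. The count of members higher after HI in KO was 14. It was 15 with DESeq2's size factors, 13 without the filter, 21 with the DESeq2 test, 16 with limma-voom and 0 with only the 2 KO groups fitted, where the share of all genes called higher was 5.35%, 3.5%, 8.31%, 4.82% and 0.111%, with 4.88% in the fit reported. It ran from 4 to 18 with single libraries left out (1.83% and 6.97% of all genes). The count higher in KO than in WT after HI was 17. It was 18, 15, 25, 19 and 17 under the same settings in the same order (6.21%, 4.29%, 11.4%, 6.27% and 6.18% of all genes), and ran from 5 to 23 with single libraries left out (1.60% and 11.9%). The count higher after HI in WT was 0, and it was 3 with DESeq2 (3.66% of all genes) and 5 with only the 2 WT groups fitted (9.11%), and ran from 0 to 4 with single libraries left out. Counts of members lower stayed at 0 in all comparisons under all settings run, as did both counts for the sham comparison and for the difference of responses, for which a fit of 2 groups is not defined. Atp6v0c, Gla, Neu1 and Atp6v1b2 after HI in KO, and Hexa, Man2b1, Asah1, Psap and Npc2 between KO and WT after HI, were called with every single library left out. The cause of the other losses was not tested.

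With the replicate number as a block, 1 member was called after HI in KO (0.357% of all genes higher), 0 between KO and WT after HI (0.0202%) and 0 in the other comparisons. The numbers share no stated animal, litter or day. Of 15 pairs of same-numbered libraries, 10 had deviations from their group means that correlated above 0.1 (range -0.78 to 0.79, median 0.26). Of 69 pairs with different numbers, 24 did so (range -0.76 to 0.90, median -0.09). Of the 15 libraries, 4 correlated best with their own number. WT HI 5 and KO sham 6 could not, since no other group held a library with their number. The libraries were not treated as paired because the labels name nothing that they share. These correlations do not settle whether same-numbered libraries were related.

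Only the label defines the cells, and neither purity nor cell numbers are given. The standard error of the log2 fold change between KO and WT after HI ran from 0.08 (Atp6ap1) to 0.74 (Atp6v0d2). KO libraries varied in neuron, astrocyte and oligodendrocyte lineage markers, and libraries of both genotypes varied in choroid plexus and microglia markers. The choroid plexus sum ran from 36.6 to 8350 CPM in WT HI and from 1300 to 52634 CPM in KO HI. Atp6v0d2, at 0.664 to 2.92 CPM in WT sham, is the least abundant member. RSEM estimates can share reads among related sequences, and promoter windows were lacking for 5 members.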
